A study of Mus musculus with 38 samples.

Results

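Keratin-associated proteins are small proteins of the hair shaft, encoded by the Krtap genes. They fill the matrix around the keratin filaments of hair cortex and cuticle cells and tie those filaments together, largely through disulphide bonds. Their families differ in composition: the high-sulphur and ultra-high-sulphur proteins are rich in cysteine, whereas the high glycine-tyrosine proteins are rich in those residues. The genes are short, mostly without introns, sit in tandem clusters made by repeated duplication, and are transcribed only late in hair follicle differentiation. In embryonic stem cells they are tissue-specific genes that are not in use. They are described here by how much of the nuclear lamina they touch. The lamina is the meshwork of lamins under the inner nuclear membrane. Stretches of chromatin that lie against it, the lamina-associated domains, are as a rule poor in active genes.

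The members were the protein-coding genes in the LAP2B, LMNB1 and IGG tables whose symbol is Krtap followed by a number. There were 110 of them among 78202 annotated genes, 21687 of which were protein-coding. They belong to 27 numbered subfamilies and lie in 4 clusters and 1 pair (mm39, GRCm39). The chr7 cluster holds 12 genes of the ultra-high-sulphur Krtap5 subfamily (chr7:141673807-141858331). The chr10 cluster holds 22 high-sulphur genes of Krtap10 and Krtap12 (chr10:77525791-77698716). The chr11 cluster holds 38 genes from 9 subfamilies, among them the high-sulphur Krtap1, Krtap2 and Krtap3 and the ultra-high-sulphur Krtap4, Krtap9 and Krtap17 (chr11:99440956-99884820). The chr16 cluster holds 36 genes from 15 subfamilies, among them the high glycine-tyrosine Krtap6, Krtap7, Krtap8, Krtap19, Krtap20, Krtap21 and Krtap22 and the high-sulphur Krtap11, Krtap13, Krtap14, Krtap15, Krtap24, Krtap26 and Krtap27 (chr16:88407593-89368071). Krtap28-10 and Krtap28-13 form the pair on chr1 (chr1:83019245-83039642).

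The study mapped contacts with the nuclear periphery by CUT&RUN, where an antibody brings a nuclease to its target and the nuclease cuts out the DNA nearby. LAP2B is an inner nuclear membrane protein made by Tmpo, LMNB1 is a lamin, and IGG libraries, made with a rabbit anti-mouse secondary antibody, give the background. There were 36 libraries in 12 groups of 3, each from 200000 cells. Naive mouse embryonic stem cells (mESCs) were grown in 2i and LIF and taken after 48 h, and epiblast-like cells (EpiLCs) were derived from them with FGF and Activin A over 48 h. LAP2B was mapped at both stages in WT cells, in LBRKO cells without the lamin B receptor, in TKO cells without Lmna, Lmnb1 and Lmnb2, and in QKO cells without these lamins and the receptor. For LMNB1 and IGG there were WT libraries alone. WT and TKO are littermate lines, LBRKO was made by frameshift indels in Lbr in WT, and QKO was 1 clone edited in TKO, described with a frameshift and an in-frame deletion in Lbr. Several LBRKO clones were made, and the labels do not say which gave each library. For WT, TKO and QKO the line or clone cannot be told apart from the genotype. The TKO line carries an extra chromosome 8, which holds no Krtap gene, and the WT line was a mixture in which a minority of cells had abnormal karyotypes. The authors also found signal outside lamina-associated domains for LAP2B in WT EpiLCs and did not use LAP2B as a stand-in for such domains in mutant EpiLCs, which limits every EpiLC contrast and stage difference given here. No source used here says that the 3 libraries of a group came from separate cultures, so p-values measure the spread between these libraries, and an exact permutation test of 3 against 3 libraries could not go below 0.1. CUT&RUN reads are genomic DNA, so cell types could not be checked by expressed markers. Coverage over the targeted genes was not lost and so checks nothing about the labels: the lowest mutant library over the lowest WT library was 0.921 to 2.40 in naive mESCs and 1.05 to 1.32 in EpiLCs for Lbr, Lmna, Lmnb1 and Lmnb2.

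The DNA just upstream of the genes shows what the members share besides the encoded protein. The 4 stretches below are the 250 bases before the annotated start of the member with the highest naive LMNB1 in each cluster, printed 5′ to 3′ on the sense strand from GRCm39 with the motif TATAAA in capitals. They are Krtap5-26 (chr7:141674467-141674716, minus strand), Krtap10-34 (chr10:77634968-77635217, minus strand), Krtap4-25 (chr11:99549787-99550036, minus strand) and Krtap13-23 (chr16:88574534-88574783, plus strand).
Krtap5-26: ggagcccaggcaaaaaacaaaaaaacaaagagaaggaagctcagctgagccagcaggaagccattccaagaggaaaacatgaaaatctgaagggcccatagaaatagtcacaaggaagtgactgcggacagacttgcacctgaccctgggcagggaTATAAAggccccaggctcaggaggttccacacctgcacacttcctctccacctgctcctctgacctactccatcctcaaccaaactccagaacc
Krtap10-34: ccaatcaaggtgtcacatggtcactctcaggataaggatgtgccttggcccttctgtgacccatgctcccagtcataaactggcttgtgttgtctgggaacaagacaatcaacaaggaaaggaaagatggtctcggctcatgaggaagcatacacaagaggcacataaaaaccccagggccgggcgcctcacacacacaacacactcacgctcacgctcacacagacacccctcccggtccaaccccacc
Krtap4-25: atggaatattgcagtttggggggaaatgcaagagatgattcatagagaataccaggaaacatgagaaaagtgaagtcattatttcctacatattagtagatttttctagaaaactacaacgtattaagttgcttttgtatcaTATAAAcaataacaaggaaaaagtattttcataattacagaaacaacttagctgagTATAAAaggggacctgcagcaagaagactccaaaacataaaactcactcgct
Krtap13-23: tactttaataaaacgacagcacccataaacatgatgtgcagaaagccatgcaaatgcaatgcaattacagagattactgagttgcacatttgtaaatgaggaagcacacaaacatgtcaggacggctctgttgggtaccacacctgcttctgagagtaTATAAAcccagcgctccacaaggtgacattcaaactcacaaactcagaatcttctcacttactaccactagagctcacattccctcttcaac
TATAAA stood in 86 of 110 members (78.2%) on the sense strand, against 7.98% of 21573 other protein-coding genes. It was found in 11 of 12 upstream stretches in the chr7 cluster, 36 of 38 in chr11, 27 of 36 in chr16 and 11 of 22 in chr10. Of the 4 printed stretches, Krtap10-34 lacks it, Krtap4-25 holds 2 copies, and Krtap5-26 and Krtap13-23 hold 1 each. They were picked by LMNB1 and need not be typical, and Krtap10-34 holds 6 CpG. The median upstream stretch held 1 CpG in the members and 6 in other protein-coding genes. The 1 kb bins that the genes touch, which also hold flanking sequence, differed in base composition as well. The median GC content of the 1 kb bins over the members was 55.1% in the chr7 cluster, 55.9% in chr10, 47.1% in chr11 and 41.4% in chr16, beside 44.7% for all tested genes.

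Signal over a gene is the sum over the 1 kb bins that it touches. The relative scale divides it by the median gene of the same library, and density divides signal per bin by that of the median gene, so a density of 1 is the level of the median gene and densities may be compared between genes. Most members are small: 24 touched 1 bin and 82 touched 2, whereas Krtap15-1 touched 10 and has Krtap14 within it, so that the 2 share bins. The members rested on few reads. With the 3 WT naive LAP2B libraries pooled, the median was 13 reads per member and library in the chr7 cluster, 17.5 in chr10 and 24 in chr11. It was 34 in chr16, where single values ran from 4 to 238. Near-identical copies are a further limit, because reads from repeated sequence may be placed on the wrong copy. The median share of 50-base windows found elsewhere in the genome was 31.9% in the chr7 cluster, 18.2% in chr10, 13.9% in chr11 and 2.36% in chr16. Among single members with signal it was highest on chr10, at 79.6% in Krtap10-23, 71.3% in Krtap10-26 and 67.3% in Krtap10-22, all 3 named for this share, and reached 55.9% in Krtap5-1 on chr7. Signal was 0 in all 36 libraries for 9 members, namely Krtap4-13, Krtap4-20, Krtap4-21 and Krtap4-26 on chr11 and Krtap16-3, Krtap20-20, Krtap20-21, Krtap20-22 and Krtap20-24 on chr16, named here for their values. The authors left out blacklisted regions, and whether these genes lie in such regions was not tested. Of the 101 members with signal, 97 passed the filter on low values: 12 on chr7, 20 on chr10, 33 on chr11, 30 on chr16 and the chr1 pair. The other 4 were Krtap12-22, Krtap12-23, Krtap9-3 and Krtap6-5.

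In WT naive mESCs the 4 clusters sat at different depths in the lamina signal. The chr16 cluster was high, the chr11 cluster lay near the median gene, and the chr7 and chr10 clusters were low. For LMNB1 the median density over members in each library was 2.55, 1.83 and 1.75 in the chr16 cluster, 1.12, 0.833 and 0.927 in chr11, 0.431, 0.542 and 0.469 in chr10, and 0.492, 0.556 and 0.563 in chr7. The mean was 2.05 ± 0.44 (SD, n = 3) in chr16, 0.961 ± 0.148 in chr11, 0.480 ± 0.056 in chr10 and 0.537 ± 0.039 in chr7. The lowest chr16 library thus stood above the highest of every other cluster. The chr10 and chr7 libraries overlapped, and their order was not resolved.

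LAP2B gave the same first and second place. Its mean over the 3 WT naive libraries was 1.81 ± 0.13 (SD, n = 3) in the chr16 cluster, 1.08 ± 0.12 in chr11, 0.771 ± 0.091 in chr10 and 0.711 ± 0.247 in chr7. In the IGG background the order was not seen. IGG gave 0.976 ± 0.060 (SD, n = 3) in chr16, 0.979 ± 0.036 in chr11, 1.09 ± 0.22 in chr10 and 1.26 ± 0.07 in chr7, where the chr7 and chr10 libraries overlapped. The background was not flat, however. The chr7 libraries, at 1.29, 1.19 and 1.32, all lay above those of chr16 (0.933 to 1.04) and chr11 (0.951 to 1.02). All 31 chr16 members with signal had more LMNB1 than the median gene, as did 12 of 34 in chr11 and none of the 34 in chr7 and chr10. As ranks among the tested genes, which leave out the lowest signals, the median chr16 member was at percentile 88.3 for LMNB1 and 87.8 for LAP2B. The median chr10 member was at 12.3 and 33.4.

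**Figure D1:**
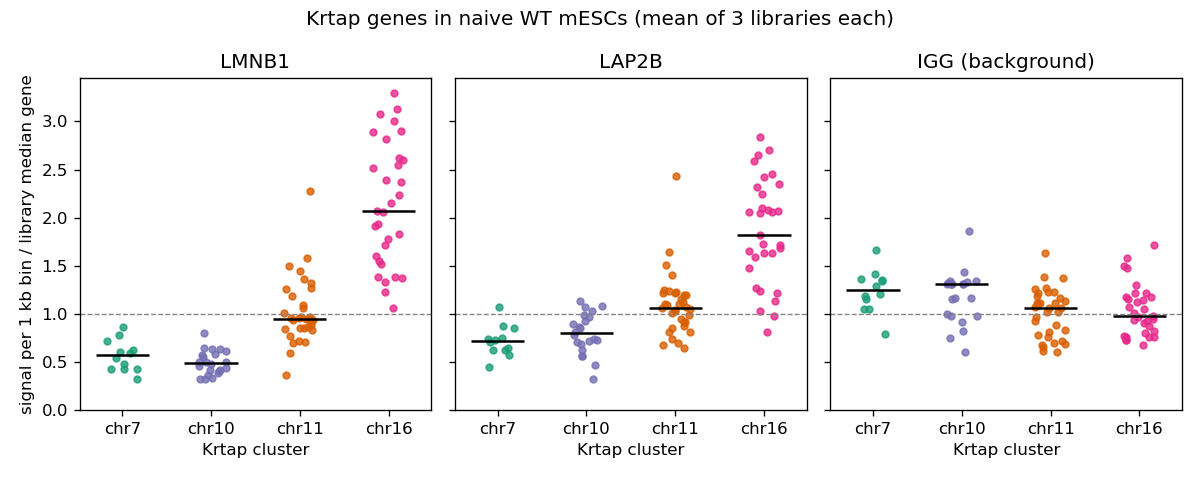
Density of LMNB1, LAP2B and IGG over each Krtap member with signal in WT naive mESCs (y axis, mean of 3 libraries, in units of the median gene's density, dashed line at 1), by genomic cluster (x axis), with a black bar at the cluster median. In LMNB1 the 31 chr16 members all lie above the median gene and the chr7 and chr10 members all below it, whereas IGG runs from 0.600 to 1.86 over single members and overlaps between all clusters.

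Within the chr16 cluster the highest LMNB1 levels were found in high-sulphur and in high glycine-tyrosine genes. Krtap13-23 had the highest density of all members, 3.30 ± 0.45 (SD, n = 3), at percentile 98.4. The next were the high glycine-tyrosine genes Krtap19-3 at 3.13 ± 0.59, named for its value, Krtap19-2 at 3.08 ± 0.55 and Krtap19-1 at 3.01 ± 1.05. Krtap14 (2.90 ± 0.49) and Krtap13-21 (2.89 ± 0.72) followed, and the order of these 6 was not resolved beyond their SDs. The lowest chr16 member was Krtap7-1 at 1.06 ± 0.45. The 25 members with signal in the first 480.2 kb of the cluster had a median density of 2.15 (1.23 to 3.30), and the 6 members in the remaining 480.2 kb had 1.56 (1.06 to 2.51). On chr11 the highest member was the ultra-high-sulphur gene Krtap4-25 at 2.28 ± 0.69, and the lowest was its relative Krtap4-27 at 0.368 ± 0.028. Thus 2 genes of the Krtap4 subfamily marked both ends of the chr11 range. However, Krtap4-27 rested on 13, 13 and 11 LMNB1 reads. Its naive IGG was low too, at 0.247 ± 0.046 (SD) on the relative scale, against 0.503 ± 0.088 in Krtap4-25. Whether poor read recovery lowered Krtap4-27 was not tested. On chr10 the range ran from Krtap10-27 at 0.321 to Krtap10-34 at 0.796, and on chr7 from Krtap5-22 at 0.326 to Krtap5-26 at 0.862, with no member at the level of the median gene.

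**Figure D2:**
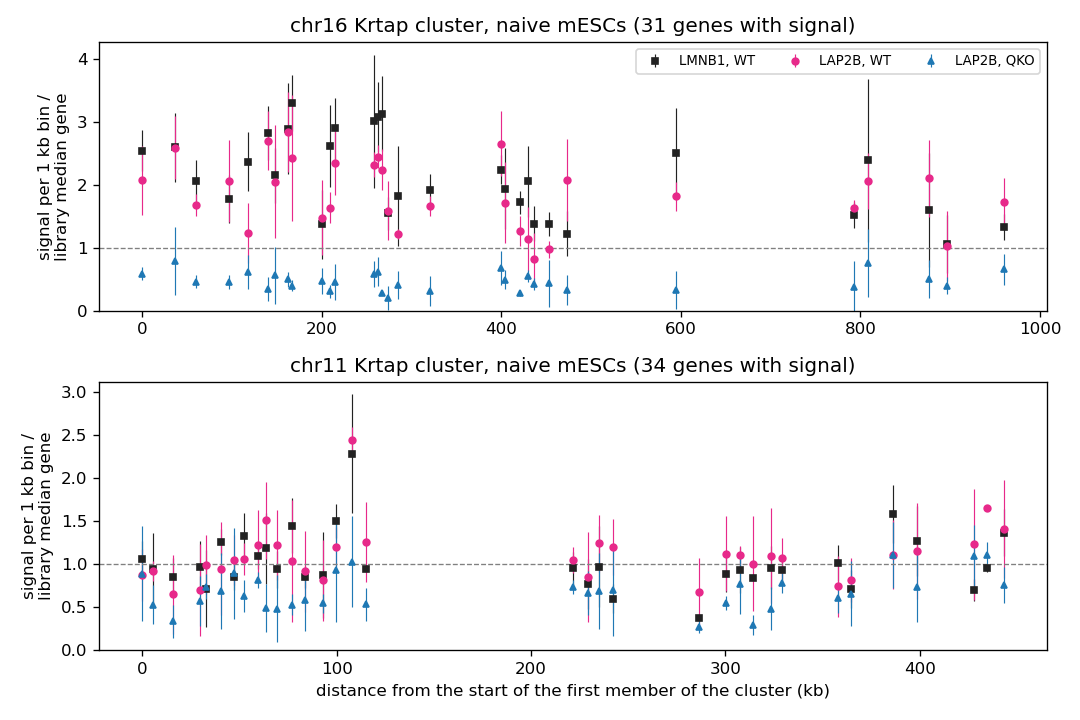
Density over each member with signal in naive mESCs (y axis, mean of 3 libraries, bars SD) against its distance in kb from the first member of the chr16 and chr11 clusters (x axis), for WT LMNB1, WT LAP2B and QKO LAP2B. Along chr16 the QKO values lie below the WT LAP2B values, at a median of 0.459 over the first 25 members and 0.453 over the last 6.

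The genes around the clusters were at like levels. The non-member genes within 500 kb had a mean LMNB1 density of 1.84 ± 0.32 (SD over 3 libraries) around chr16 (42 genes), 0.845 ± 0.042 around chr11 (80 genes), 0.604 ± 0.098 around chr10 (61 genes) and 0.550 ± 0.076 around chr7 (55 genes). As in the members, the surroundings of chr16 were the highest and those of chr11 came next.

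Next, LAP2B in naive LBRKO cells was compared with WT, to ask how contacts of these genes depend on the lamin B receptor. On the relative scale the chr16 genes fell: 26 of 30 tested passed (86.7%), where 27.7% of all 70382 tested genes were called lower and 28.9% higher. The median log2 change was -1.24 in the chr16 cluster, against 0.04 for all genes. Calls here and below are limma's at a Benjamini-Hochberg adjusted p under 0.05 over all tested genes, and log2 changes are on the log2(value + 0.1 of the median gene) scale, which understates changes of low values. Krtap19-2 had relative values of 0.958, 1.11 and 0.981 in WT and 0.212, 0.0984 and 0.386 in LBRKO. The groups did not overlap, and the log2 change was -1.84 ± 0.31 (SE, adjusted p 1.49e-06). Krtap19-9b, of the same subfamily, fell by 1.67 and Krtap11-1 by 1.61. High-sulphur genes of the cluster fell as well, with changes of -1.44 in Krtap13, -1.38 in Krtap26-1 and -1.23 in Krtap27-1. The chr16 members that missed the call were Krtap13-1, Krtap13-24, Krtap6-6 and Krtap6-7, named here for their values, and all 30 changes were negative.

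In the other clusters few members passed in LBRKO. On chr11 the median change was -0.40 and 3 of 33 were called lower (9.09%), below the 27.7% background: Krtap29-1 (-0.96), Krtap16-1 (-0.68) and, named for its value, Krtap3-2. Leaving out single libraries ended the calls of the first 2, at -0.62 for Krtap29-1 without WT replicate 1 and at -0.58 for Krtap16-1 without LBRKO replicate 2. In chr7 and chr10 limma called none of 12 and none of 20, with none at an unadjusted p under 0.05 and none called by edgeR, and medians of 0.30 and 0.06. On chr1, Krtap28-13, also named for its value, was called lower and Krtap28-10 was not (-0.19).

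In naive TKO cells, which lack the lamins, the falls were spread over 2 clusters. On chr16, 18 of 30 members were called lower (60%) and on chr11 12 of 33 (36.4%), where the background was 27.6% lower and 21.8% higher. With edgeR 13 were called lower on chr16 and 13 on chr11, where it called 18125 of 70382 genes lower. The medians were -0.79 on chr16 and -0.63 on chr11, beside -0.11 for all genes, and all 33 chr11 changes were negative. Among chr16 genes Krtap13-21 fell the most. Its relative values were 1.00, 1.5 and 1.04 in WT and 0.342, 0.250 and 0.179 in TKO, with no overlap and a log2 change of -1.85 ± 0.29 (SE, adjusted p 8.65e-07). Krtap13 fell by 1.15, Krtap20-1 by 1.23 and Krtap19-1 by 1.01, while Krtap6-1 (-0.49) and Krtap7-1 (-0.20) did not pass.

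On chr11 the largest fall in TKO was in Krtap1-4, a high-sulphur gene. Krtap1-4 had 0.250, 0.523 and 0.462 in WT and 0.0789, 0 and 0.149 in TKO, which were 18, 23 and 24 reads against 6, 0 and 10. The log2 change was -1.59 ± 0.34 (SE, adjusted p 1.18e-04). It was not called in LBRKO (-0.03) or in QKO (-0.48). Krtap2-4 fell by 1.26, Krtap16-1 by 1.09 and Krtap4-25 by 0.98, the last of which lost its call at -0.74 without TKO replicate 2. On the relative scale limma called no member of chr7 or chr10 in TKO. In chr7 1 member and in chr10 none had an unadjusted p under 0.05, edgeR called 1 in chr7 and none in chr10, and the medians were 0.13 and 0.05. Dividing each library by its mean gene in place of the median gene left 15 lower and 3 higher calls in TKO where there were 30 lower.

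**Figure D3:**
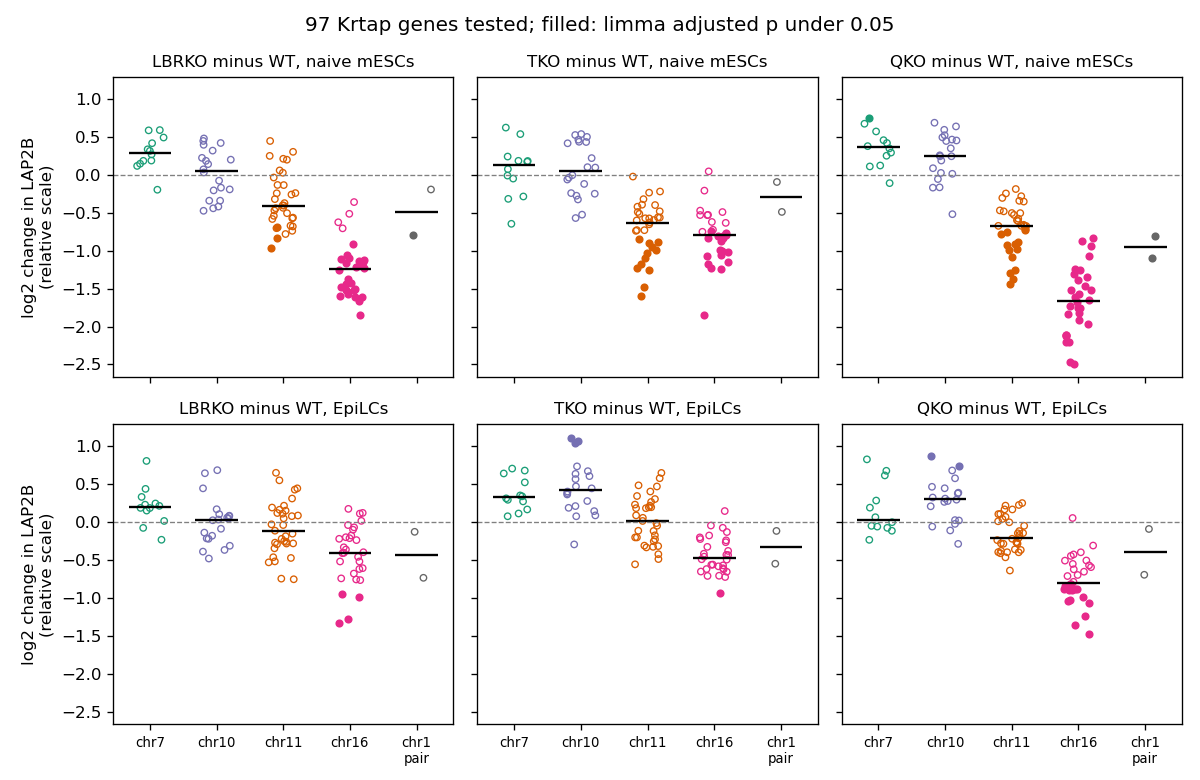
Log2 change of LAP2B from WT on the relative scale (y axis) for each of the 97 tested members by cluster (x axis), in LBRKO, TKO and QKO for naive mESCs and EpiLCs. Filled points passed at a limma adjusted p under 0.05 and black bars mark cluster medians, which for chr16 in naive mESCs are -1.24, -0.79 and -1.66.

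In naive QKO cells, without lamins and receptor, every tested chr16 member fell: 30 of 30, against a background of 42.5% lower and 33.1% higher. The median was -1.66, beside -0.23 for all genes. Krtap15-1 had values of 3.31, 4.00 and 2.90 in the WT libraries. It had 1.28, 1.11 and 0.964 without the receptor (LBRKO), 2.16, 1.55 and 2.09 without the lamins (TKO), and 0.356, 0.724 and 0.559 without both (QKO). All 3 mutant groups lay below WT without overlap, and QKO lay below all others. The log2 change of Krtap15-1 was -1.52 for LBRKO, -0.79 for TKO and -2.47 ± 0.23 (SE, adjusted p 4.27e-14) for QKO. Krtap13 went from 1.33, 1.09 and 0.942 in WT to 0.111, 0.200 and 0.0588 in QKO, which were 96, 48 and 49 reads against 10, 21 and 4. Its change was -2.49 ± 0.30 (SE, adjusted p 2.26e-10), which differs from that of Krtap15-1 by less than the SE. The cluster median density fell to 0.386, 0.529 and 0.417 in the 3 QKO libraries from 1.81, 1.95 and 1.69 in WT, so that the cluster highest in WT was the lowest in QKO. Counted by library, the mutant values of 26 chr16 members in LBRKO, 21 in TKO and 30 in QKO lay below all WT values, where this held for 28.5%, 29.4% and 42.1% of all tested genes.

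On chr11, 14 of 33 members were called lower in QKO (42.4%), which is at the 42.5% background. The median was -0.67 and all 33 changes were negative. Krtap4-25 had 0.944, 1.09 and 1.00 in the WT libraries, whereas LBRKO gave 0.702, 0.836 and 0.843, TKO gave 0.579, 0.300 and 0.552, and QKO gave 0.478, 0.457 and 0.147. The mutant libraries all lay below WT. The change of Krtap4-25 was -1.37 ± 0.32 (SE, adjusted p 1.29e-04) in QKO and -0.32 in LBRKO, where it did not pass (adjusted p 0.398). Krtap2-4 fell by 1.44 and Krtap9-1 by 0.99, the latter losing its call without QKO replicate 3 (-0.76) or WT replicate 2 (-0.73), while Krtap1-3 (-0.50), Krtap3-1 (-0.67), Krtap4-1 (-0.67) and Krtap31-1 (-0.34) did not pass.

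The chr7 and chr10 clusters had positive medians in QKO on the relative scale, 0.37 and 0.26, but negative ones on the spike-in scale, -0.50 and -0.55, where the median of all genes was -1.24. On the relative scale 1 of 12 chr7 members rose, below the background of 33.1%. This was Krtap5-2, with 0.361, 0.227 and 0.346 in WT and 0.544, 0.438 and 0.838 in QKO, and 0.778, 0.556 and 0.333 in naive IGG. The groups did not overlap, and the change was 0.76 ± 0.35 (SE, adjusted p 0.0448). edgeR did not call it (adjusted p 0.0521), nor did limma without any 1 of QKO replicate 1 (0.80), QKO replicate 3 (0.53), WT replicate 2 (0.60) or WT replicate 3 (0.82). In chr10 limma and edgeR called none of 20, and 2 had an unadjusted p under 0.05. Krtap10-24 went from 0.403, 0.341 and 0.596 to 0.733, 0.600 and 0.691 (0.53, adjusted p 0.0958). With spike-in scaling the changes of Krtap5-2 and Krtap10-24 were negative, at -0.22 and -0.49, and neither passed. Over all members QKO had 46 lower calls and 1 higher, and 37 and 9 after dividing by the mean gene. On chr1 both genes were called lower, Krtap28-10 at -0.80, a call lost at -0.62 to -0.80 without QKO replicate 1, QKO replicate 2 or WT replicate 3.

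**Figure D4:**
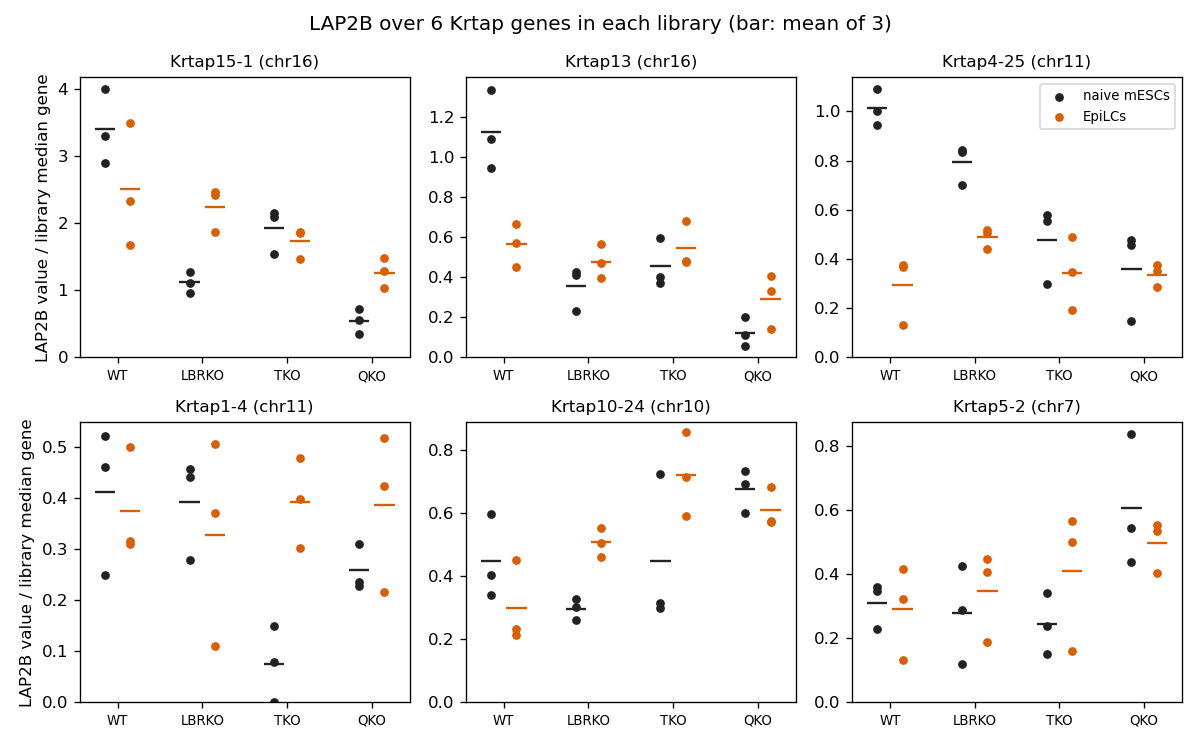
LAP2B signal relative to the median gene (y axis) over 6 members in each of 24 libraries, by genotype and stage (x axis), with points for single libraries and bars for the group mean. Krtap15-1 and Krtap13 are highest in WT and lowest in QKO in naive mESCs, Krtap1-4 is lowest in naive TKO, and Krtap5-2 and Krtap10-24 lie higher in naive QKO than in naive WT.

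All these contrasts share the WT libraries, so their lists are not independent. The difference between LBRKO and TKO was therefore tested itself, a contrast added after these values were seen. It called 6 of 33 chr11 members higher in LBRKO (18.2%, background 21.5%) and 5 of 30 chr16 members lower (16.7%, background 15.9%), with medians of 0.29 and -0.47 on the relative scale. Both shares are near the background, and dividing by the mean gene gave 2 higher and 12 lower in place of 7 and 6 over all members. On the spike-in scale, where the median of all genes was 0.74, 32 members were called higher in LBRKO (background 53.5%) and none lower (background 0.72%, and none lower with edgeR). The 32 became 21 without TKO replicate 1 or TKO replicate 3, and 73 where the spike-in factor was applied to reads. The spike-in chr11 median was 0.83 with 18 of 33 called higher, and the chr16 median was 0.09 with 2 of 30, so no chr16 member was called lower in LBRKO on that scale.

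Among single genes, Krtap1-4 differed by 1.56 and Krtap2-4 by 1.00 on chr11 on the relative scale, and by 2.08 and 1.53 on the spike-in scale. On chr16 the relative differences were -0.98 in Krtap11-1, -0.92 in Krtap7-1, -0.86 in Krtap19-2 and -0.73 in Krtap15-1. The same genes had -0.39, -0.39, -0.25 and 0.03 with spike-in scaling, and none of the 4 passed.

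**Figure D5:**
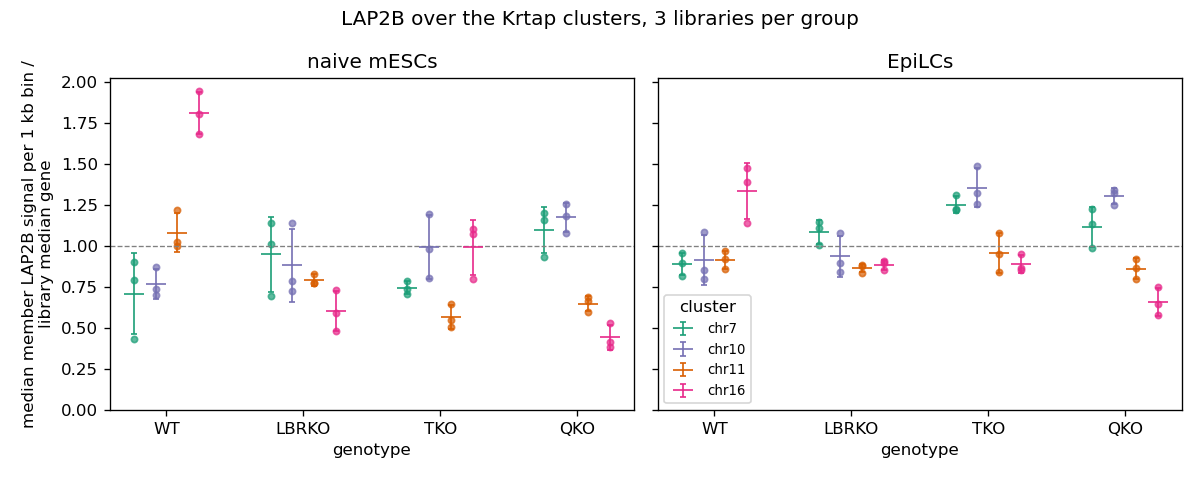
Median LAP2B density over the members with signal of each cluster (y axis, in units of the median gene's density), by genotype (x axis) in naive mESCs and EpiLCs, with a point for each library and the mean ± SD of 3. In naive mESCs the chr16 cluster stands at 1.81 in WT, against 0.605 (LBRKO), 0.994 (TKO) and 0.444 (QKO).

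The neighbours of the chr16 cluster moved with it, whereas around the other clusters the counts for neighbours and members differed. Around chr16, 39 of 42 non-member genes within 500 kb were called lower when the receptor was absent (LBRKO), 27 when the lamins were (TKO) and 40 when both were (QKO), with medians of -1.41, -0.94 and -1.72, whereas the median over all of chromosome 16 was -0.10, -0.15 and -0.22. Around chr11 in QKO, 27 of 80 neighbours were called higher and 19 lower, with a median of -0.13, below the 0.79 of chromosome 11 and above the -0.67 of the chr11 members, of which none was called higher. In LBRKO 17 of these neighbours were called higher and 9 lower, with a median of 0.01 beside -0.40 in the members, and in TKO 11 and 22, with -0.30 beside -0.63. The balance turned with spike-in scaling, to 9 higher and 54 lower around chr11 in QKO (median -1.19) and 0 and 46 in TKO (-0.83). Around chr10 and chr7, 44 of 61 and 34 of 55 neighbours were called higher in QKO, where 0 of 20 and 1 of 12 members were; on the spike-in scale the neighbours' medians were -0.30 and -0.58. The members there hold fewer reads than long genes do, and the part of read number in that gap was not tested.

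Base composition moved with the changes across the members, and less so within single clusters. Across the 97 tested members, Pearson's r between GC content and the naive log2 change was 0.735 for LBRKO, 0.653 for TKO and 0.829 for QKO. Within the chr16 cluster (30 genes) it was 0.055, 0.146 and 0.207, within chr11 (33 genes) -0.025, -0.170 and -0.067, within chr10 (20 genes) 0.407, 0.363 and 0.492, and within chr7 (12 genes) -0.010, 0.138 and -0.251. The part of base composition in the changes was not tested. These are descriptions over genes that share libraries, bins and ancestry. Naive IGG density, at 0.976 to 1.26 over the clusters, was measured in WT only.

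On the spike-in scale, the deposited values that keep differences in total signal, the naive falls took in more members in TKO and QKO and fewer in LBRKO (26 in place of 30). In QKO 72 members were called lower, namely 30 of 30 on chr16, 33 of 33 on chr11, 7 of 20 on chr10 and both on chr1, with a background of 65.5%. The medians were -2.30 on chr16 and -1.44 on chr11, beside -1.24 for all genes. In TKO 60 were called lower, namely 28 on chr16, 28 on chr11, 2 on chr10, 1 on chr7 and 1 on chr1, with a background of 47.5% and a median of -0.65 over all genes. In LBRKO the deposited scale gave 25 calls on chr16 and 1 on chr11, with a background of 17.8%, and the median of all genes was 0.21. The chr16 medians in LBRKO were close on the 2 scales, -1.24 and -1.17.

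In EpiLCs the WT starting level of the chr16 cluster was lower for LAP2B. Its median density was 1.48, 1.14 and 1.39 in the 3 WT EpiLC libraries, below the 1.69 to 1.95 of naive WT. For LMNB1 it was 1.66, 1.82 and 1.64, which overlapped the 1.75 to 2.55 of naive WT. The IGG background of this cluster was 0.727 ± 0.104 (SD, n = 3) in EpiLCs and 0.976 ± 0.060 in naive mESCs, so as density the background moved the same way. On the relative scale the chr16 medians of the log2 change were -0.38 in IGG and -0.49 in LAP2B. In each, 27 of 30 members were negative, and the medians over all genes were -0.02 and -0.07. With spike-in scaling the chr16 medians were 0.41 in IGG, beside 0.92 over all genes, and -0.35 in LAP2B, beside 0.09. Both thus lay below the median of all genes. The part of the background in the LAP2B change was not tested.

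Gene by gene, 7 members were called lower in LAP2B in WT EpiLCs than in WT naive mESCs, against a background of 17.1% lower and 15.1% higher, and none was called higher. Krtap4-25 on chr11 changed the most. It had 0.944, 1.09 and 1.00 in naive mESCs and 0.133, 0.369 and 0.375 in EpiLCs (-1.57 ± 0.32, SE, adjusted p 1.21e-04). Krtap22-2 (-1.06), Krtap13-21 (-0.94), Krtap13 (-0.88) and Krtap27-1 (-0.87) of chr16 were lower as well. The count was 4 with edgeR, 2 without WT naive replicate 2, 4 without WT EpiLC replicate 2 or 3, and 11 without WT EpiLC replicate 1 or WT naive replicate 3. Dividing by the mean gene gave 3 higher and 3 lower, and on the spike-in scale Krtap4-25 alone was called (background 1.75%).

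Of the genes just named, only Krtap4-25 was also called lower in LMNB1. Krtap4-25 went from 1.29, 0.670 and 0.909 in naive mESCs to 0.299, 0.341 and 0.422 in EpiLCs (-1.18, adjusted p 0.00924). Krtap14 fell by 1.34 in LMNB1 and Krtap15-1, which shares its bins, by 0.61, but the LAP2B values of both overlapped between the stages. Krtap5-4, named for its value, rose by 0.90. These 3 falls and 1 rise stood against backgrounds of 7.09% and 6.34%, and the count of 4 became 1 without WT EpiLC replicate 1, 2 without replicate 3 and 8 without replicate 2. On the spike-in scale 3 were called higher and 1 lower (backgrounds 8% and 0.249%). In IGG limma and edgeR called none of 97, where 10 had an unadjusted p under 0.05 and the background was 0.49%.

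The genotype contrasts in EpiLCs gave fewer calls. In LBRKO 4 chr16 members were called lower (13.3%, background 10.1%), namely Krtap6-1 (-1.33), Krtap20-2 (-1.27), Krtap8-1 (-0.98) and Krtap7-1 (-0.95). Krtap6-1 had 0.617, 0.405 and 0.482 in WT and 0.187, 0.173 and 0.0706 in LBRKO, without overlap (SE 0.29, adjusted p 4.56e-04). The chr16 median was -0.40, and the count was 8 without WT replicate 2. The call of Krtap8-1 was lost without LBRKO replicate 3 (-0.90) or WT replicate 3 (-0.75), and that of Krtap7-1 without LBRKO replicate 3 (-0.82) or WT replicate 2 (-0.90). Krtap15-1, by contrast, had 3.50, 1.68 and 2.34 in WT EpiLCs and 2.46, 2.42 and 1.87 in LBRKO EpiLCs, which overlapped (-0.10, adjusted p 0.812).

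In TKO EpiLCs 1 chr16 member was called lower, Krtap20-1 (-0.94), against 9.97%. Its call was lost in 4 of 6 fits that left out 1 library, at -0.79 to -0.91. Of 20 chr10 members 3 rose, against 8.68%: Krtap10-26 (1.11), Krtap10-24 (1.07) and, named for its value, Krtap10-23 (1.05). Krtap10-26 and Krtap10-23 are those with 71.3% and 79.6% of repeated windows. Krtap10-24 has 24.7%, and the median of the chr10 cluster was 18.2%. The part of misplaced reads in these 3 rises was not tested. Krtap10-24 had 0.233, 0.452 and 0.214 in WT and 0.714, 0.856 and 0.592 in TKO, without overlap, and 0.897, 0.233 and 0.611 in EpiLC IGG. The TKO mean of Krtap10-26 was 0.317, beside 0.330 in WT EpiLC IGG, and that of Krtap10-23 was 0.639, beside 0.588. Their WT EpiLC LAP2B values rested on few reads, 2, 15 and 5 in Krtap10-26 and 10, 40 and 10 in Krtap10-23. On the spike-in scale 1 chr10 member was called higher in TKO (background 0.0995%) and 1 chr16 member lower (background 9.36%). The 4 calls became 0 without WT replicate 1 and 2 without TKO replicate 2.

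In QKO EpiLCs 15 of 30 chr16 members were called lower (50%, background 17.8%), with a median of -0.80. Krtap19-2 had 0.833, 0.762 and 0.429 in WT and 0.0909, 0.193 and 0.253 in QKO, a change of -1.48 ± 0.31 (SE, adjusted p 1.55e-04). Krtap14 fell by 1.35 and Krtap19-9b by 1.05, while Krtap6-1 (-0.62) and Krtap11-1 (-0.43) did not pass. On chr11 limma and edgeR called none of 33 and none had an unadjusted p under 0.05, with a median of -0.21. On chr10 Krtap10-24 (0.87) and Krtap10-33 (0.74) rose on the relative scale, below the 18.3% background, and both calls were lost when some single libraries were left out (0.72 to 0.80 and 0.55 to 0.77). The 17 calls of this contrast became 7 without WT replicate 1 and 11 without QKO replicate 2. On the spike-in scale 50 members were called lower, with a background of 55.7%, of which 29 were on chr16 and 18 on chr11.

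The difference of each effect between the stages was tested as an interaction. In LBRKO the effect was higher in EpiLCs, that is, less negative or slightly positive, for 7 of 30 chr16 members (23.3%, background 10.2%), in QKO for 12 of 30 chr16 and 4 of 33 chr11 members (background 24.9%), and in TKO for 2 chr11 members (background 5.79%). The difference was 1.42 ± 0.32 (SE, adjusted p 0.00122) in LBRKO and 1.58 ± 0.32 (adjusted p 6.39e-05) in QKO for Krtap15-1, and 1.24 and 1.67 for Krtap13. In TKO it was 1.65 for Krtap1-4 and 1.28 for Krtap16-1. In chr7 and chr10 no member had a stage difference called by limma or edgeR in the 3 genotypes, with 0 to 4 per cluster and genotype at an unadjusted p under 0.05. On the spike-in scale limma and edgeR called none in LBRKO, where 12 had an unadjusted p under 0.05 (background 0.0938% higher and 0.536% lower in EpiLCs). The chr16 median difference in LBRKO was still 0.91 there, beside 0.98 on the relative scale. With spike-in scaling limma called 1 higher in TKO (0.817%) and 12 higher in QKO (21.9%).

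Finally, the genes that work with Krtap proteins in the hair shaft were set beside them, from lists of keratins and regulators. The type I hair and root sheath keratins, the acidic partners of the filament, lie near the chr11 cluster. Of 13 tested, 5 were called lower in naive QKO (background 42.5%), with a median of -0.48, 6 in TKO (median -0.53, background 27.6%) and 2 in LBRKO (median -0.40, background 27.7%). With spike-in scaling the counts were 13, 12 and 0, where the backgrounds were 65.5%, 47.5% and 17.8%. Krt39 fell the most in QKO (-0.87, adjusted p 0.00162), from 1.68, 1.95 and 1.58 to 0.456, 1.36 and 1.13. Of 11 type II hair and root sheath keratins, the basic partners, 2 were called higher, with a median of 0.26 and the largest rise in Krt86 (0.81), but 9 of 11 were called lower on the spike-in scale.

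Of 16 hair shaft regulators and cross-linking genes, 8 were called higher and 6 lower in naive QKO, with a median of 0.62. With spike-in scaling 4 were called higher and 8 lower (backgrounds 10.1% and 65.5%), with a median of -0.54. Hoxc13, a transcription factor of the hair shaft, rose from 1.03, 0.864 and 0.827 to 6.03, 4.54 and 5.84 (2.46, adjusted p 4.07e-18), also on the spike-in scale (1.27). Its naive WT IGG was 1.89, 1.84 and 1.82, above its WT LAP2B, and IGG was not measured in QKO. Lipk, a lipase of differentiating epidermis, fell by 1.48. Of 20 keratins of other epithelia, 3 were called higher, with the largest rise in Krt8 (1.94), and 4 lower, with the largest fall in Krt13 (-0.98). In the deposited values 1 of these 20 was called higher and 17 lower, with a median of -1.19. Over Krt8 the naive WT IGG was 2.53, 2.44 and 2.125, above its WT LAP2B of 1.39, 0.795 and 1.42. The relative backgrounds are the 33.1% and 42.5% given above for this contrast.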

How the data were processed

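LAP2B (24 libraries), LMNB1 (6) and IGG (6) CUT&RUN libraries were analysed, in 12 groups of 3 from the sample labels; the H3K9me3 samples and the tables of transposable elements were left out. According to the methods of the study and the submitters' processing notes, the authors aligned reads to mm39 with Bowtie2 (2.3.5.1) and a yeast spike-in to sacCer3, filtered with SAMtools (1.10), and computed coverage in 1 kb bins with deepTools as RPKM times a spike-in factor, leaving out blacklisted regions. The deposited gene values are therefore spike-in scaled signal. How bins were joined to genes is not given in the sources used here and was worked out from the values: all 343 sets of genes within 1 shared bin had equal values. Where the bins of a 2-bin gene were known from other genes (24 genes) and differed, the value was their sum (782 of 782), and where they were equal it was 1 bin (81 of 81), which lowers such values and concerned 9.39% of the values compared.

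Values were whole multiples of a step within each library (100% within 0.05 of a step), so whole reads were recovered. They summed to 12028659 to 45689196 per library over the genes, with 36 to 135 for the median gene, and shared bins were counted for each gene. Sequencing was paired-end, and whether both mates of a fragment were counted was not tested. Independent fragments may therefore be fewer than the read counts given here. Replicates were counted singly. Analyses used Python 3.11.15 with numpy 2.4.6 and pandas 2.3.3. Coordinates came from GENCODE M39 for 78131 of 78202 genes, a later release than the authors' M30. Genes in the lowest 0.1 of mean signal were left out, which left 70382. limma 3.58.1 in R 4.3.3 (eBayes with trend, group means without a block, all libraries of a target in 1 fit) was run on log2(value + 0.1 of the table median), two-sided, with Benjamini-Hochberg adjustment over all genes tested and calls at 0.05, on the relative scale (library divided by its median gene) and on the deposited spike-in scale. On simulated data for naive QKO against WT it recovered 64% of 100 genes changed 2-fold and 94% of 100 changed 4-fold among 70382, and 0.0114% of unchanged genes were called. In the data 42.5% of genes were called lower and 33.1% higher in this contrast, so the adjusted cutoff was looser than in the simulation. These rates therefore do not carry over to the calls of members. Alternatives were edgeR 4.0.16 on the recovered reads, other pseudocounts, no filter, other scalings, a replicate block, members sharing no bin, and leaving out each library. The members, lists and tests were chosen with earlier results of these data known. Named members are the lowest-numbered of each subfamily, the 2 largest called rises and 2 largest called falls per genotype contrast, and the highest and lowest naive LMNB1 density per cluster; from each keratin or regulator list the largest called rise and fall in naive QKO are named, and other names are marked as chosen for their values. Upstream sequence was read from GRCm39, and the search covered TATAAA on both strands (12.2% of other protein-coding genes hold it on either).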

Additional observations from a re-analysis of the deposited data

Results flagged for a closer look

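The effect of a genotype on LAP2B differed between naive mESCs and EpiLCs for 7 members in LBRKO, 2 in TKO and 16 in QKO, by the interaction test in limma. On the relative scale each difference was positive, that is, the change from WT was negative in naive mESCs and, in EpiLCs, less negative or slightly positive. These counts are 7.22%, 2.06% and 16.5% of the 97 tested members, below the 10.2%, 5.79% and 24.9% of all tested genes called in the same, positive direction. With spike-in scaling limma called 0, 1 and 12 in the positive direction, where 0.0938%, 0.817% and 21.9% of all genes were. In LBRKO limma and edgeR called 0 in the negative direction there as well (background 0.536%), and 12 members had an unadjusted p under 0.05 in either direction. The chr16 median difference in LBRKO was 0.91 on that scale and 0.98 on the relative scale. In LBRKO the 7 lay on chr16. The 2 in TKO lay on chr11. In QKO 12 lay on chr16 and 4 on chr11. edgeR called 6, 3 and 14. For LBRKO the count was 2 without WT EpiLC replicate 3, 3 without WT naive replicate 2, and 4 without any 1 of LBRKO naive replicate 1, LBRKO naive replicate 3 or WT naive replicate 1. For TKO it was 0 without TKO EpiLC replicate 2, 4 without WT naive replicate 1 and 5 without TKO EpiLC replicate 1. For QKO it was 10 without WT EpiLC replicate 2 or WT naive replicate 2. The WT level of the chr16 cluster also differed between the stages (LAP2B density 1.81 and 1.34, IGG 0.976 and 0.727), and the part of this in the differences was not tested.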

How the results depend on the processing

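In naive mESCs on the relative scale the chr16 medians of the contrasts with WT kept their sign under every alternative run, and the counts of members called in LBRKO and QKO stayed within 1.5 times, whereas the spike-in scale gave 72 calls in QKO in place of 47. Dividing by the mean gene gave 18 calls in naive TKO, 4 and 1 stage differences in LBRKO and TKO, naive TKO medians of 0.29 (chr10), -0.40 (chr11) and -0.53 (chr16), naive QKO medians of 0.46 (chr10) and -0.47 (chr11), -0.73 for chr16 in QKO EpiLCs, LMNB1 densities of 0.450 (chr7), 0.403 (chr10) and 0.801 (chr11), and LAP2B densities of 0.671 (chr10), 0.942 (chr11) and 1.57 (chr16). Signal per kb of gene gave medians of -1.61 (chr16 LBRKO), 0.19 (chr10 TKO), 0.46 (chr10 QKO) and -2.08 (chr16 QKO) in naive mESCs and of -0.61 (TKO) and -1.04 (QKO) for chr16 in EpiLCs, with LMNB1 levels of 0.620 (chr7), 0.837 (chr10), 1.44 (chr11) and 3.78 (chr16) and LAP2B levels of 1.47 (chr10), 1.69 (chr11) and 3.49 (chr16). Members within 1 bin, an alternative chosen after seeing the data, gave 0.47 (chr10 TKO) and 0.50 (chr10 QKO) in naive mESCs, -0.26 (TKO) and -0.59 (QKO) for chr16 in EpiLCs, LMNB1 of 0.451 (chr7) and 0.537 (chr10), and LAP2B of 0.678 (chr10) and 1.23 (chr11). Members with few repeated windows, chosen likewise, gave -0.27 (chr10 TKO, the opposite sign) and 0.35 (chr10 QKO) and a chr10 LAP2B of 0.680. These last 2 alternatives rest on few genes in some clusters. Only 5 members on chr10 and 0 on chr7 held under 10% of repeated windows, and 2 on chr11 touched 1 bin. For WT EpiLC against naive LAP2B the count of 7 became 4 with edgeR, 4 with a pseudocount of 0.01 of the median gene and 14 with 1. The smaller pseudocount gave 4 stage differences in LBRKO and 1 spike-in call in TKO EpiLCs. The larger one gave 7 (relative) and 6 (spike-in) calls in LBRKO EpiLCs, 7 and 10 in TKO EpiLCs, and 13 and 8 stage differences in LBRKO and TKO. A spike-in factor applied to reads gave 11 calls in LBRKO EpiLCs, 24 in QKO EpiLCs and 73 for naive LBRKO against TKO on the spike-in scale. Leaving out 1 library moved the counts to 3 to 8 (relative) and 0 to 4 (spike-in) in LBRKO EpiLCs, 21 to 40 (spike-in) for naive LBRKO against TKO, 7 to 16 in QKO EpiLCs, 0 to 6 and 0 to 14 in TKO EpiLCs, 2 to 11 (LAP2B) and 1 to 8 (LMNB1) between WT stages, and 2 to 9 (LBRKO), 0 to 5 (TKO) and 10 to 19 (QKO) for stage differences. It moved medians to 0.18 to 0.35 (chr10 naive QKO), -0.058 to 0.14 (chr10 naive TKO), 0.30 to 0.63 (chr10 TKO EpiLCs), -0.82 to -0.73 (chr16 QKO EpiLCs) and -0.19 to 0.0076 (chr11 LBRKO EpiLCs), the last reversing to 0.0076 without LBRKO EpiLC replicate 1. The cause of these shifts was not tested. Replicate numbers did not pair the libraries (LAP2B deviations of same-numbered libraries correlated at -0.116 to 0.176, LMNB1 at -0.25 to 0.001, IGG at 0.001 to 0.018), and with a replicate block the calls were 31 in naive LBRKO, 15 stage differences in QKO and 3 in LMNB1, with no count moved by over 1.5 times. Calls of named genes were lost 30 times over the alternative settings and 76 times over the fits without 1 library, and none changed sign in these. Between the relative and spike-in scales signs did change. In naive QKO, Krtap5-2 and Krtap10-24 were positive on the relative scale and -0.22 and -0.49 on the spike-in scale. Few reads per member limit single genes, with cluster medians of 12 to 43.5 reads over the LAP2B groups.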
